A study of Artemisia argyi with 3 samples.

Results

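CL48 is a cluster of 37 contigs in the de novo transcriptome of *Artemisia argyi*, a mugwort whose leaves are burned in moxibustion. All unigenes whose identifier carries the cluster prefix CL48 before its contig number were taken, 37 of the 88,591 in the expression table and of the 38,424 that belong to clusters. The cluster was chosen by its FPKM in root, since it holds the highest single value of the table. Its abundance and its order of tissues are therefore given as a description and without a test. Roots, stems and leaves of mature plants were each sequenced as 1 library, made from tissue pooled over 5 plants. No genotypes or treatments were compared, and with 1 value per contig and tissue there is no standard deviation or p-value in what follows. The spread between plants is unknown, and pooled tissue holds many cell types, so that few cells with much of a transcript and many cells with little of it give the same value.

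A cluster is a set of assembled transcripts that share enough sequence to be grouped. Its contigs can be splice forms, alleles or close copies of a gene, or partial assemblies of any of these, and unigenes that met no partner are kept as singletons. FPKM is the number of fragments per kilobase of the contig and per 1,000,000 mapped fragments of the library. Fragments that fit several contigs of a cluster were divided among them by a statistical estimate, so the value of a single contig is less certain than the sum over the cluster. The expression table pairs no contig with a gene name or a sequence, so that no function is given here for CL48 and the tissue of each library could not be checked against marker genes.

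The deposited FPKM values sum to 684,729 in the root library, 732,443 in the stem library and 745,319 in the leaf library. A unigene with very few fragments takes its FPKM in steps, and these steps carry the relative depth of the libraries. Over unigenes between 0.2 and 0.5 FPKM in both libraries of a pair, the most frequent ratio was 0.93 for root over leaf (1,221 unigenes), 0.96 for root over stem (1,447) and 1 for stem over leaf (1,231). A single fragment was thus worth nearly the same FPKM in each library.

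Summed over its 37 contigs, CL48 reached 25,816 FPKM in root, 477 FPKM in stem and 3,087 FPKM in leaf. The root sum was 8.36 times the leaf sum and 54.2 times the stem sum, and the stem sum was 0.154 times the leaf sum. The cluster took 3.77% of all FPKM in the root library, 0.0651% in the stem library and 0.414% in the leaf library. FPKM is relative to the whole library, so an abundant cluster lowers every other value there. If each library were brought back to its FPKM sum with CL48 left out, all other root values would be 1.04 times as high, against 1.0007 times in stem and 1.004 times in leaf. Among the 12,950 clusters of the table, CL48 ranked 1 by summed FPKM in root, 126 in stem and 4 in leaf. By the mean over its contigs in place of their sum it ranked 12 in root, since most of its contigs were far below the leading one.

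A single contig, CL48.Contig9, carried most of these sums. It had 20,278 FPKM in root, 430 FPKM in stem and 2,854 FPKM in leaf. These were the highest value of the root library, the 156th highest of the stem library and the fifth highest of the leaf library. The most abundant unigene outside the cluster in root was CL10745.Contig3, with 5,750 FPKM, and Contig9 was 3.53 times as high. In leaf the most abundant unigene was Unigene13045, with 4,537 FPKM, and Contig9 was 0.629 times as high. In stem CL1697.Contig3 led with 2,839 FPKM, and Contig9 was 0.151 times as high. Contig9 alone was 2.96% of the root library, 0.0587% of the stem library and 0.383% of the leaf library.

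CL48.Contig3 was the next most abundant contig in each tissue, with 2,262 FPKM in root, 34.4 FPKM in stem and 213 FPKM in leaf. It ranked 7 among all unigenes of the root library. CL48.Contig26 was much lower, with 115 FPKM in root, 2.19 FPKM in stem and 6.83 FPKM in leaf. These contigs were grouped after their values were seen. They kept the same order of tissues, root above leaf above stem, over a range of 176-fold in root abundance. Contig1, Contig7, Contig15, Contig19 and Contig23, among others, had this order too, with lower stem and leaf values. The ratio of root to leaf was 7.10 for Contig9, 10.6 for Contig3 and 16.9 for Contig26. The ratio of root to stem was 47.2, 65.8 and 52.7 for the same contigs. Stem over leaf was 0.151, 0.161 and 0.321.

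**Figure D1:**
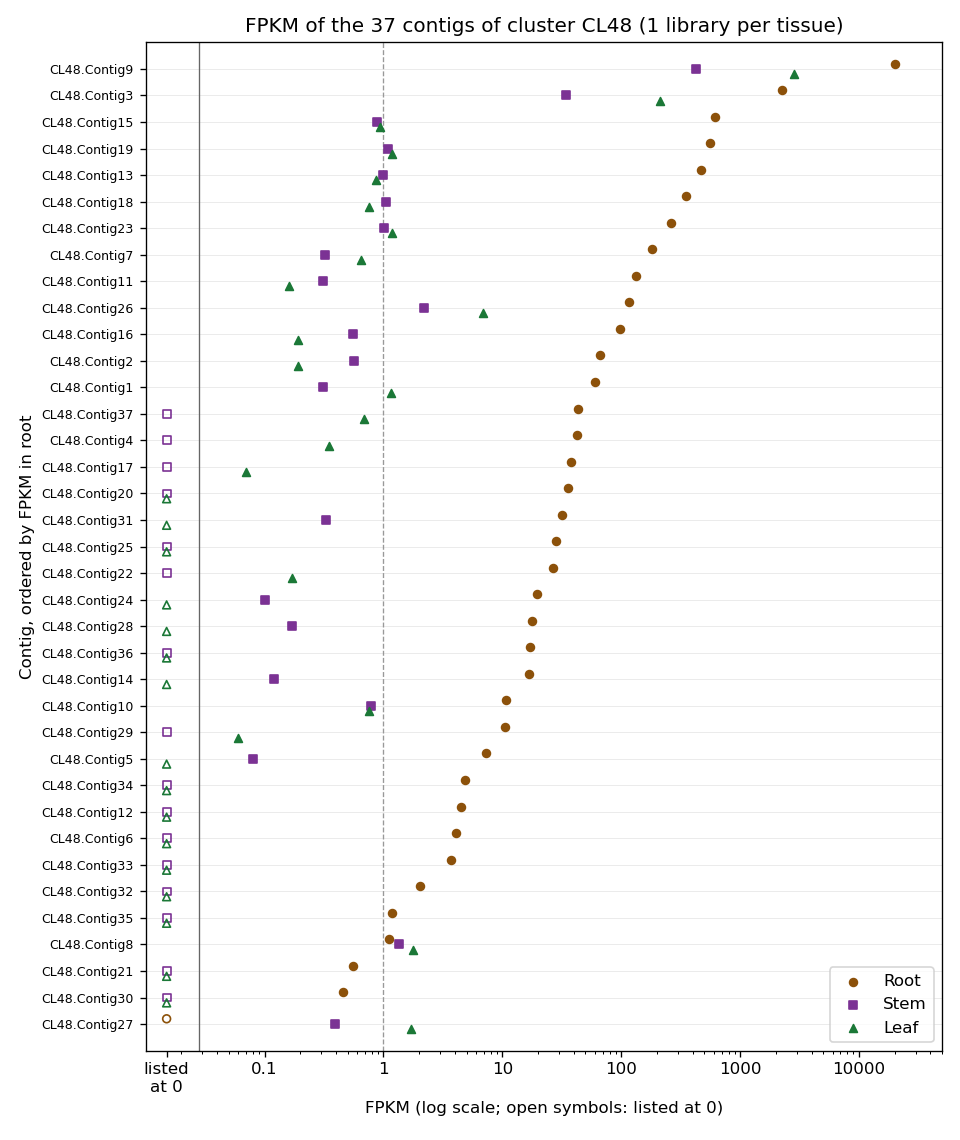
FPKM of each of the 37 contigs of CL48 on a log axis, with circles for root, squares for stem and triangles for leaf. Open symbols at the left edge are values listed at 0, and the dashed line marks 1 FPKM. Root lies to the right of stem and leaf for 35 contigs, and only Contig9, Contig3 and Contig26 exceed 2 FPKM in stem or leaf.

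Most of the other 34 contigs were nearly confined to the root library. Contig8, Contig27 and Contig10 were exceptions, and Contig21 and Contig30 were under 1 FPKM in every library. The 34 summed to 3,162 FPKM in root, 10.4 FPKM in stem and 12.8 FPKM in leaf, and none was above 1.77 FPKM in stem or leaf. Their root sum was 246 times the leaf sum and 303 times the stem sum, against 7.37 and 48.6 times for Contig9, Contig3 and Contig26 together. Their stem sum was 0.812 times the leaf sum, against 0.152 times in the 3 contigs. Single members went both ways, and stem over leaf ran from 0.227 to 3 in the 13 of them above 0 in both tissues. This division of the contigs was made after their values were seen and is a description of 3 libraries.

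Among the 34 contigs, 7 were above 100 FPKM in root. CL48.Contig15 had 612 FPKM in root, 0.88 FPKM in stem and 0.93 FPKM in leaf. CL48.Contig19 had 556, 1.09 and 1.19 FPKM in root, stem and leaf. CL48.Contig13 had 469, 0.99 and 0.86 FPKM, with stem slightly above leaf. In each of them root was at least 467 times as high as either shoot tissue. CL48.Contig18, with 353, 1.06 and 0.76 FPKM in root, stem and leaf, and CL48.Contig23, with 264, 1.01 and 1.17 FPKM, were of the same kind. CL48.Contig7 had 182, 0.32 and 0.65 FPKM, and CL48.Contig11 had 132, 0.31 and 0.16 FPKM. Over the 7 contigs the ratio of root to leaf ran from 226 for Contig23 to 826 for Contig11, with a median of 467. The ratio of root to stem ran from 262 for Contig23 to 696 for Contig15, with a median of 474. Stem over leaf ran from 0.492 for Contig7 to 1.94 for Contig11, with a median of 0.946, so that neither shoot tissue was the higher one throughout.

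Below these in root abundance were CL48.Contig16, with 96.9 FPKM in root, 0.56 FPKM in stem and 0.19 FPKM in leaf, and CL48.Contig2, with 66.7, 0.57 and 0.19 FPKM. In both of them stem was above leaf, by 2.95 times in Contig16 and 3 times in Contig2. The number of fragments behind a value is not given in the table, so the precision of such low stem and leaf values is unknown. With values written to 2 decimals, a level such as 0.06 FPKM also carries a large rounding error.

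**Figure D2:**
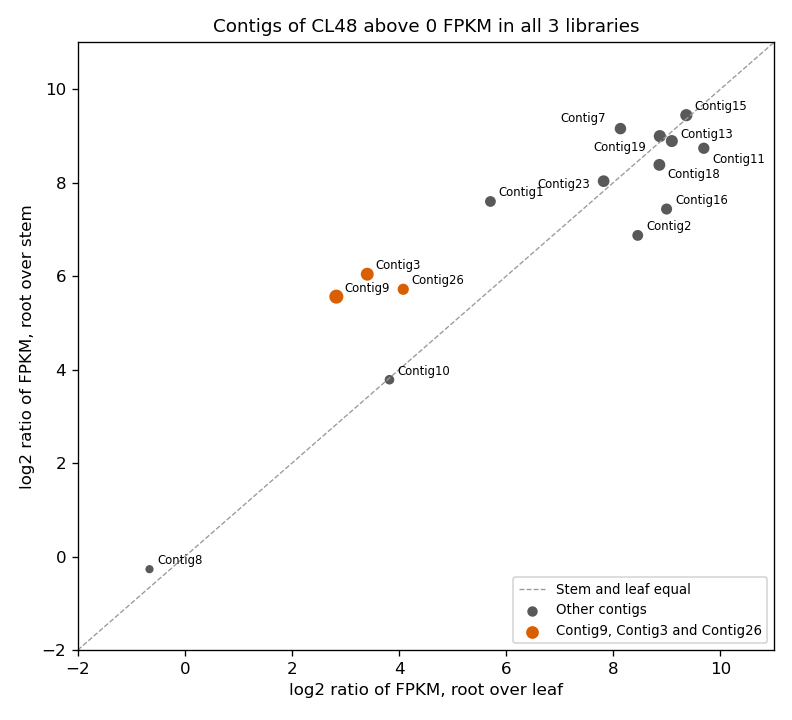
Log2 ratio of FPKM, root over leaf on the horizontal axis and root over stem on the vertical axis, for the 15 contigs above 0 FPKM in all 3 libraries; larger points have more FPKM in root, and the dashed line marks equal stem and leaf values. Contig9, Contig3 and Contig26 lie above the line at root over leaf ratios of 7.10 to 16.9. The 7 other contigs above 100 FPKM in root lie near the line at ratios of 226 or more. Contig8 lies below 0 on both axes.

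A further 16 contigs were between 10 and 100 FPKM in root, and they summed to 562 FPKM there, 2.94 FPKM in stem and 3.63 FPKM in leaf. Besides Contig16 and Contig2 they included CL48.Contig1, with 60.0 FPKM in root, 0.31 FPKM in stem and 1.15 FPKM in leaf. CL48.Contig10 stood apart from the rest, with 10.7 FPKM in root, 0.78 FPKM in stem and 0.76 FPKM in leaf. Its ratios of root to leaf and of root to stem, 14.1 and 13.8, were the lowest among these 16. Its leaf value equalled that of Contig18, which had 353 FPKM in root. The other 12 contigs were each listed at 0 in at least 1 shoot library.

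A value of 0 in 1 library or more was listed for 22 of the 37 contigs. CL48.Contig37 with 43.7 FPKM in root, CL48.Contig4 with 42.2, CL48.Contig17 with 38.0, CL48.Contig22 with 26.95 and CL48.Contig29 with 10.4 were listed at 0 in stem and had 0.06 to 0.69 FPKM in leaf. The opposite was seen for CL48.Contig31 with 31.5 FPKM in root, CL48.Contig24 with 19.4, CL48.Contig28 with 17.7, CL48.Contig14 with 16.6 and CL48.Contig5 with 7.23, which were listed at 0 in leaf and had 0.08 to 0.33 FPKM in stem. Being seen in 1 shoot tissue and not in the other thus went 5 contigs each way. Another 11 contigs, or 29.7%, were listed at 0 in both stem and leaf, against 14.5% of all unigenes. Every such unigene was above 0 in root, so the 88,591 unigenes include none listed at 0 in every library. The study assembled more unigenes than these, and shares of all unigenes are over detected ones only. The most abundant of the 11 contigs in root were CL48.Contig20 with 35.8 FPKM, CL48.Contig25 with 28.4 and CL48.Contig36 with 17.3. CL48.Contig34 had 4.86 FPKM in root, CL48.Contig12 had 4.52, CL48.Contig6 had 4.07, CL48.Contig33 had 3.73, CL48.Contig32 had 2.03 and CL48.Contig35 had 1.17. The lowest were CL48.Contig21 with 0.56 FPKM and CL48.Contig30 with 0.46 FPKM, both under the level of 1 FPKM above which the study counts a unigene as expressed.

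Only 2 contigs did not have their highest value in root. CL48.Contig27 was listed at 0 in root and had 0.39 FPKM in stem and 1.72 FPKM in leaf. CL48.Contig8 had 1.12 FPKM in root, 1.35 FPKM in stem and 1.77 FPKM in leaf, nearly level over the 3 tissues. Both were highest in leaf at under 2 FPKM, and both had more leaf FPKM than each of the other 32 contigs outside Contig9, Contig3 and Contig26. The remaining 35 contigs were highest in root, and none was highest in stem. The same 35 and 2 were counted after rescaling each library to a sum of 1,000,000 and after median-ratio scaling. Of all unigenes, 27.04% had their highest FPKM in root.

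Counted with the study's level of 1 FPKM, 34 of the 37 contigs were expressed in root, 7 in stem and 8 in leaf, where 46.9%, 50.5% and 46.4% of all unigenes were. Above 100 FPKM there were 10 contigs in root, 1 in stem and 2 in leaf, beside 1.28%, 1.40% and 1.38% of all unigenes. The median contig of the cluster had 28.4 FPKM in root, 0.12 FPKM in stem and 0.16 FPKM in leaf, beside medians of 0.86, 1.03 and 0.82 FPKM over all unigenes of the same libraries. The median contig was above the median unigene in root and below it in stem and leaf. Since the rule chose the cluster on its root values, nothing is read about the contigs from these counts and medians.

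On the scale of FPKM + 1, 33 of the 37 contigs were at least 2-fold higher in root than in leaf, where 18.0% of all unigenes were, and 1 was at least 2-fold lower, where 20.2% were. The lower one was Contig27. Between root and stem, 33 contigs were at least 2-fold higher in root, beside 14.2% of all unigenes, and 0 were at least 2-fold lower, beside 19.8%. The median log2 ratio over the contigs was 4.22 for root over leaf and 4.80 for root over stem, and over all unigenes it was -0.02 and -0.24. The rule chose the cluster on its root values, so nothing is read from these counts about the contigs. Without a pseudocount, median-ratio scaling raises every log2 ratio of root over leaf by 0.55 and of root over stem by 0.50. Applied before 1 was added, this scaling left the counts of contigs as they were. Of all unigenes it put 22.6% at least 2-fold higher and 13.97% at least 2-fold lower in root than in leaf, and 18.3% higher and 13.8% lower in root than in stem. Between stem and leaf, which the choice of the cluster did not name, 0 contigs were at least 2-fold higher in stem, beside 16.5% of all unigenes. With 34 contigs at or under 1.77 FPKM in both tissues, adding 1 leaves little room for a 2-fold difference, and nothing is read from this count. With a pseudocount of 0.1, 6 contigs were at least 2-fold higher and 8 at least 2-fold lower in stem, and with 0.01 these were 7 and 11. The 3 contigs at least 2-fold lower in stem than in leaf, beside 12.3% of all unigenes, were Contig9, Contig3 and Contig26. Contig9 alone had 430 of the 477 FPKM in stem and 2,854 of the 3,087 FPKM in leaf.

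The contigs divided the cluster differently in the 3 libraries. Contig9 held 78.5% of the root sum, 90.1% of the stem sum and 92.5% of the leaf sum. Contig3 held 8.76% in root, 7.21% in stem and 6.91% in leaf, and Contig26 held 0.447%, 0.460% and 0.221%. The 7 other contigs above 100 FPKM in root made up 9.95% of the root sum, 1.19% of the stem sum and 0.185% of the leaf sum. The 5 most abundant contigs of each library held 93.6% in root, 98.3% in stem and 99.7% in leaf. Across the 37 contigs, which are not independent since fragments were divided among them, Pearson's r of log2(FPKM + 1) was 0.66 between root and leaf, 0.69 between root and stem and 0.99 between stem and leaf. Without Contig9, Contig3 and Contig26 it was 0.35, 0.53 and 0.78. The other 34 contigs were at or under 1.77 FPKM in stem and leaf, and 11 were listed at 0 in both. Nothing is therefore read from their r.

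**Figure D3:**
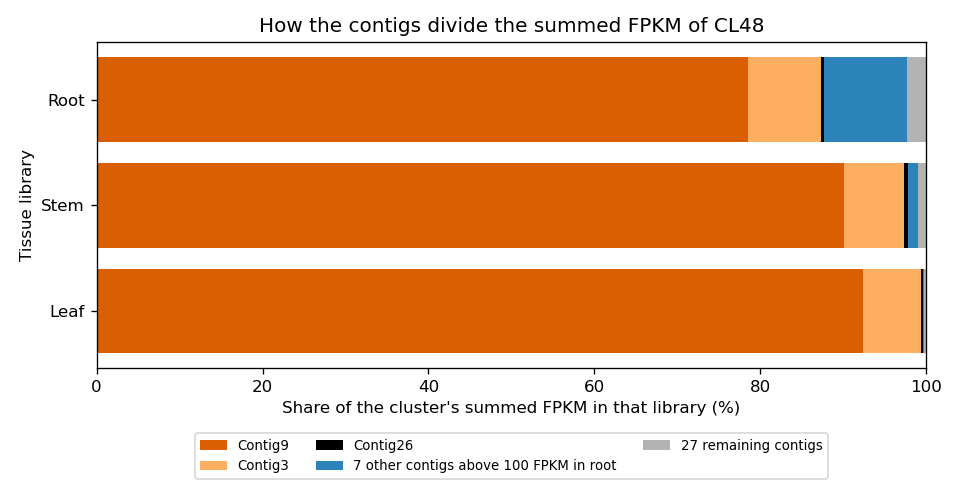
Share of the summed FPKM of CL48 held by its contigs, in percent, with 1 bar for each of the root, stem and leaf libraries. Contig9 takes 78.5% in root, 90.1% in stem and 92.5% in leaf, and the 7 other contigs above 100 FPKM in root take 9.95%, 1.19% and 0.185%.

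Abundant and root-confined unigenes were rare in the table as a whole. At least 100 FPKM in root was reached by 1,134 unigenes, 10 of them contigs of CL48. At least 100 FPKM in root together with at least 200 times the value of both stem and leaf was reached by 20 unigenes, or 0.0226% of the table. Of these 20, 7 were the CL48 contigs described above, and the threshold of 200 was set with their values in view. The other 13 came from 5 clusters and 4 singletons, and CL7910 gave 4 of them. The CL48 contigs among the 20 ran from 132 to 612 FPKM in root and the others from 110 to 1,553 FPKM.

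The first place of CL48 by root sum followed from its choice, since Contig9 alone exceeded the root sum of every other cluster. CL48 was the third largest cluster by number of contigs. The next clusters by root sum were CL1697 with 5 contigs, CL10745 with 3 and CL3367 with 9. CL1697 summed to 6,533 FPKM in root, 5,438 FPKM in stem and 2,359 FPKM in leaf. CL10745 summed to 5,762 FPKM in root, 583 FPKM in stem and 30.02 FPKM in leaf, and CL3367 to 5,209, 3,559 and 1,448 FPKM. CL48 was thus 3.95 times the next root sum. Without Contig9 it summed to 5,539 FPKM in root, below CL1697 and CL10745. CL1697, CL10745 and CL3367 each had leaf below stem, where CL48 had stem below leaf. Among the 109 clusters of at least 500 FPKM in root, the nearest to CL48 in the log2 ratios of root over leaf and root over stem were CL12048, CL1543 and CL10944. CL12048, the nearest, had 1,212 FPKM in root, 88.0 FPKM in stem and 108 FPKM in leaf, a distance of 2.02 on the log2 scale. CL1543, with 928 FPKM in root, 41.3 FPKM in stem and 479 FPKM in leaf, lay at 2.46, and CL10944, with 514, 53.6 and 40.1 FPKM, at 2.57.

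**Figure D4:**
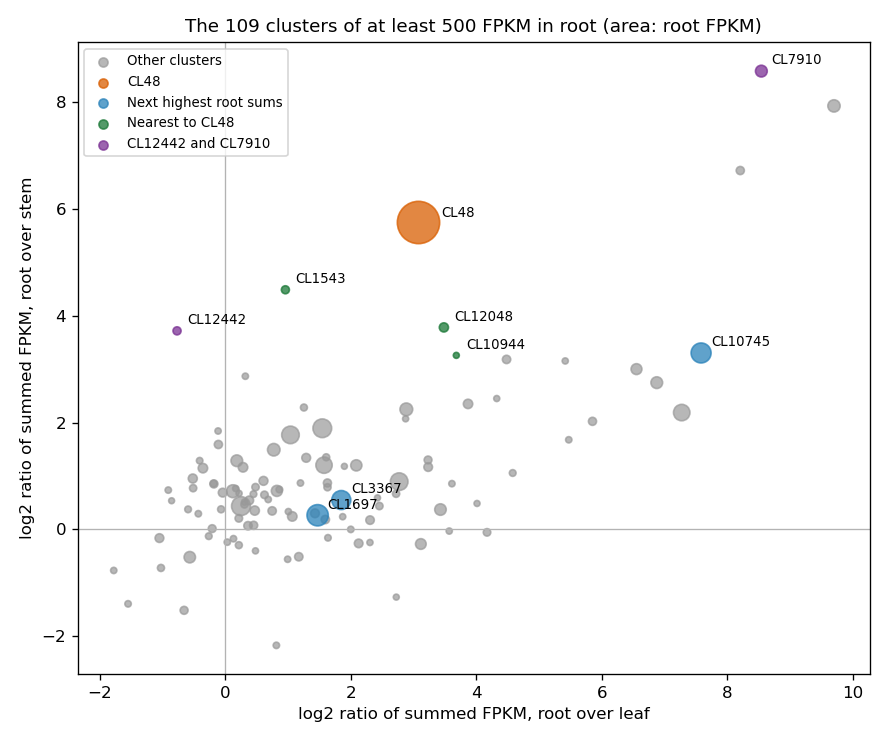
Log2 ratio of summed FPKM, root over leaf on the horizontal axis and root over stem on the vertical axis, for the 109 clusters of at least 500 FPKM in root, with the area of each point proportional to the summed root FPKM. CL48 is the largest point, and its nearest neighbour, CL12048, lies 2.02 log2 units away.

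Among the 29 clusters of at least 20 contigs, CL48 was also uneven. Its leading contig held 78.5% of the root sum, beside a median of 17.8% over these clusters and 58.0% in the next one, CL684. The share of contigs highest in root was 94.6% in CL48, beside a median of 14.3%. The rule chose CL48 for the highest root value, so nothing is read from its place in either share. Only CL12442 was like CL48 in the share of contigs highest in root, with 24 of 25 contigs, or 96.0%. CL12442 also held a contig with a departing pattern, CL12442.Contig4, with 181 FPKM in root, 41.6 FPKM in stem and 1,558 FPKM in leaf. Its other 24 contigs summed to 766 FPKM in root, 30.3 FPKM in stem and 59.0 FPKM in leaf. In both clusters most contigs were nearly confined to root while a single one held over 90% of the leaf sum, 92.5% in CL48 and 96.4% in CL12442.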

How the data were processed

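Unigenes were built by the authors from the filtered reads of all tissues by de novo assembly (Trinity 2.06) and clustering (TGICL 2.06). Reads of each tissue were aligned to them in Bowtie2 2.2.5, with up to 200 alignments per read, and quantified in RSEM 1.2.12. The deposited values are FPKM, and no genome was used. Read counts and contig lengths were not used here. The sampling error of single values is therefore unknown, and the count test used in the study (PoissonDis) was not applied.

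From these values were computed sums over contigs, shares of library and cluster sums, ratios without a pseudocount, 2-fold counts on the scale of FPKM + 1, and distances between clusters. No filter on low values was used. Alternatives were other scalings, pseudocounts, expression levels, fold thresholds and sets of contigs. A change of more than 1.5-fold was counted as a move, since no replicate spread exists.

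The cluster, the comparisons and the lists were chosen with earlier results of these data known. Named were all contigs with at least 5% of a cluster sum, highest outside root, listed at 0 in a library, or, among contigs above 1 FPKM in all 3 libraries, with the 2 highest or lowest ratios, and outside the cluster the leading unigenes, the 3 next clusters by root sum and the 3 nearest in pattern. Other names were chosen after their values were seen. Python 3.11.15, numpy 2.4.6, pandas 2.3.3 and matplotlib 3.10.9 were used. The 2-fold counts were tested on simulated data for 88,591 unigenes. The ratio of library depths from low values was tested on simulated features of known depth. The other computations were not tested on simulated data.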

Additional observations from a re-analysis of the deposited data

How the results depend on the processing

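All 3 scalings kept each ratio of the cluster sum, each 2-fold count and the expressed contigs in root and leaf within 1.5-fold of the reported value. Median-ratio scaling left 4 contigs above 1 in stem. Of 103 alternative values, 71 stayed within 1.5-fold and 32 moved. Counts, shares and ranks are never negative, so a change of sign was possible only for the log2 ratios. Of the log2 ratios, 0 changed sign. Without Contig9, the log2 ratio of the cluster sum was 4.57 for root over leaf and 6.88 for root over stem, and the share of the library was 0.809% in root, 0.00641% in stem and 0.0313% in leaf. As the median over contigs on the scale of FPKM + 1, the log2 ratios were 4.22, 4.80 and, for stem over leaf, 0. Without Contig9, Contig3 and Contig26, chosen after seeing the data, they were 7.94, 8.25 and -0.30. Above 0, 0.5, 2 and 10 FPKM there were 21, 12, 3 and 2 contigs in stem and 21, 14, 3 and 2 in leaf. With no pseudocount over contigs above 1 FPKM in both tissues, where few contigs enter, 6 were at least 2-fold higher in root than in leaf, 6 higher in root than in stem and 0 lower in root than in leaf. A pseudocount of 0.1 gave 6 contigs higher in stem than in leaf, 8 lower in stem than in leaf and 1 lower in root than in stem, and a pseudocount of 0.01 gave 7, 11 and 1. At 8-fold, 0 contigs were lower in root than in leaf and 0 lower in stem than in leaf. By the mean over contigs the cluster ranked 12 in root. No paired analysis was possible because each tissue has 1 library. Read counts were not used, so the precision of the low stem and leaf values is unknown.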

Other observations

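Outside CL48, CL7910 gave 4 of the 13 other abundant, root-confined unigenes. All 5 of its contigs were highest in root, and their sums were 1,995 FPKM in root, 5.19 FPKM in stem and 5.34 FPKM in leaf. The leading contig, CL7910.Contig5, had 850 FPKM in root, 2.10 FPKM in stem and 2.61 FPKM in leaf. Root was 374 times leaf and 384 times stem in the cluster sum, and stem was 0.972 times leaf. CL7339, which also gave some of the 13, had a higher root sum than CL7910. It summed to 2,185 FPKM in root, 8.93 FPKM in stem and 2.62 FPKM in leaf. The singleton Unigene34340 had 307 FPKM in root, 0.41 FPKM in stem and 0.42 FPKM in leaf. These unigenes were singled out after their values were seen. What sets the level of such unigenes in the stem and leaf libraries was not tested.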
